A study of Mus musculus with 16 samples.

Results

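Crispld2 (ENSMUSG00000031825) encodes a secreted protein that binds lipopolysaccharide, and its expression is described here in neutrophils sorted from germ-free (GF) and specific pathogen free (SPF) C57BL/6 mice. It is 1 of the 10296 genes in the deposited expression table, and it was taken as the table's row of that symbol. The gene was chosen by its levels in GF and SPF libraries within each tissue, so its GF and SPF values are given below as a description with no test. RNA-seq libraries were made from Ly6G+ cells sorted on CD45, CD11b, Ly6G and DAPI, from lung (3 GF and 3 SPF libraries), spleen (3 GF and 3 SPF) and blood (2 GF and 2 SPF). GF mice carry no microbes, and SPF mice carry a microbiota that is free of defined pathogens. The labels give each library as coming from a mouse of the stated status, without naming the animal, its age or its sex, so the spread between libraries may be partly technical. The study asked how the neutrophil transcriptome of GF mice differs in these tissues.

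CRISPLD2 carries a CAP domain, the fold shared by cysteine-rich secretory proteins and antigen 5, together with LCCL domains, named after Limulus factor C, cochlin and the late gestation lung protein, which is CRISPLD2 itself. It was first known as a gene that rises in fetal lung late in gestation under glucocorticoids and is made by lung mesenchyme. The secreted protein binds lipopolysaccharide, the cell wall glycolipid of Gram-negative bacteria that cells sense through LBP, CD14, MD-2 (Ly96) and TLR4. Neutrophils carry this sensing machinery and are matured and primed in part by microbial products that reach the marrow and the circulation.

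The gene lies on the forward strand of chromosome 8 at chr8:119992438-120052793 (GRCm38, GENCODE M21), a span of 60356 bases with 5 annotated transcripts. The 3 protein-coding transcripts have 15 exons each. The readthrough model Gm20388 runs across the whole gene on the same strand, and the antisense model Gm15684 lies inside it on the reverse strand. The kit and the counting are not stated to use strand, so reads of the overlapping models could have been counted with Crispld2. The 250 bases that end just before the annotated start are shown because they hold the proximal promoter of the gene whose transcript is measured below. They stand at chr8:119992188-119992437 on the forward strand and come from RefSeq (GRCm38.p6), with capitals for an E-box (CACGTG) and a CCAAT box.

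Crispld2 promoter: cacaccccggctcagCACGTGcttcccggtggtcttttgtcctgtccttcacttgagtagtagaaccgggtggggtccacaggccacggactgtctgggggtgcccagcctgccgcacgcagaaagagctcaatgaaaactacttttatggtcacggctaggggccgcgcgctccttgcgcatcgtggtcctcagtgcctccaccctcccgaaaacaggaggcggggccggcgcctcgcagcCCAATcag

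This window has a GC content of 63.2% and 18 CpG dinucleotides, against medians of 52.4% and 6 over 32851 mouse promoter windows of the same length. The E-box begins 235 bases before the start and occurs in 6.02% of those windows. The CCAAT box begins 8 bases before the start and occurs, on either strand, in 33.8% of them. The window held no match on either strand for the GC box GGGCGG (in 32.7% of windows), for TATAAA, which the TATA-binding protein reads (12.4%), for AGAACA, the core of a glucocorticoid receptor site (16.1%), or for the AP-1 site TGANTCA (6.75%). The E-box and the CCAAT box did not overlap, and a match describes letters only.

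Values are normalised counts, the deposited signal less its offset of 0.5 reads. Library depth, recovered from the step of that signal, was 104213 to 3033941 reads (median 645992.5), and 5 libraries lay under 250000 reads: GF blood replicate 3, GF spleen replicates 1 and 4, and SPF spleen replicates 1 and 4. All 15 neutrophil markers on the list, Ly6g, S100a8 and S100a9 among them, were above 0 in each of the 6 groups. Their summed level was 33180 to 42027 in GF lung and 33904 to 55135 in SPF lung, and 50535 to 112545 in GF spleen and 51515 to 80827 in SPF spleen. It was 55004 to 71876 in GF blood and 79993 to 95492 in SPF blood. In bulk libraries such as these, fewer cells of a type and less RNA per cell cannot be told apart.

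Crispld2 stood higher in GF than in SPF neutrophils of all 3 tissues. Over all tissues, the 8 GF libraries held 237 to 474 normalised counts (median 373) and the 8 SPF libraries 63.1 to 223 (median 92.8). The lowest GF library, blood replicate 3 (237), lay narrowly above the highest SPF library, lung replicate 2 (223). Each value lay within the other's 95% Poisson interval for counting error, given below. Among 8299 genes that passed a filter on low values, 3 (0.0361%) had all GF libraries above all SPF libraries, and the rule's choice of gene fixes Crispld2's place among them.

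In lung, Crispld2 had 474, 330.1 and 403 normalised counts in GF libraries, against 63.1, 223 and 88.5 in SPF libraries. The 2 groups did not overlap, and SPF replicate 2 stood well above the other SPF libraries. The means were 402 ± 71.8 in GF lung and 125 ± 85.7 in SPF lung (SD, n = 3 each), a ratio of 3.23 and a difference of 1.87 in log2(value + 1). Leaving out SPF replicate 2 gave 2.38, and leaving out SPF replicate 1 gave 1.49. In spleen, it had 426, 343 and 408 normalised counts in GF libraries, against 91.5, 112 and 94.0 in SPF libraries. The spleen groups were the tightest and lay far apart. Their means were 393 ± 43.7 in GF spleen and 99.1 ± 11 in SPF spleen (SD, n = 3 each), a ratio of 3.96 and a log2 difference of 1.95. In blood, it had 321 and 237 normalised counts in GF libraries, against 129 and 75.3 in SPF libraries, and the groups did not overlap. The blood means were 279 ± 59.5 in GF and 102 ± 37.8 in SPF (SD, n = 2 each), a ratio of 2.74 and a log2 difference of 1.49. The log2 difference ranged from 1.10 to 1.87 in blood and from 1.89 to 2.04 in spleen as each library was left out.

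**Figure D1:**
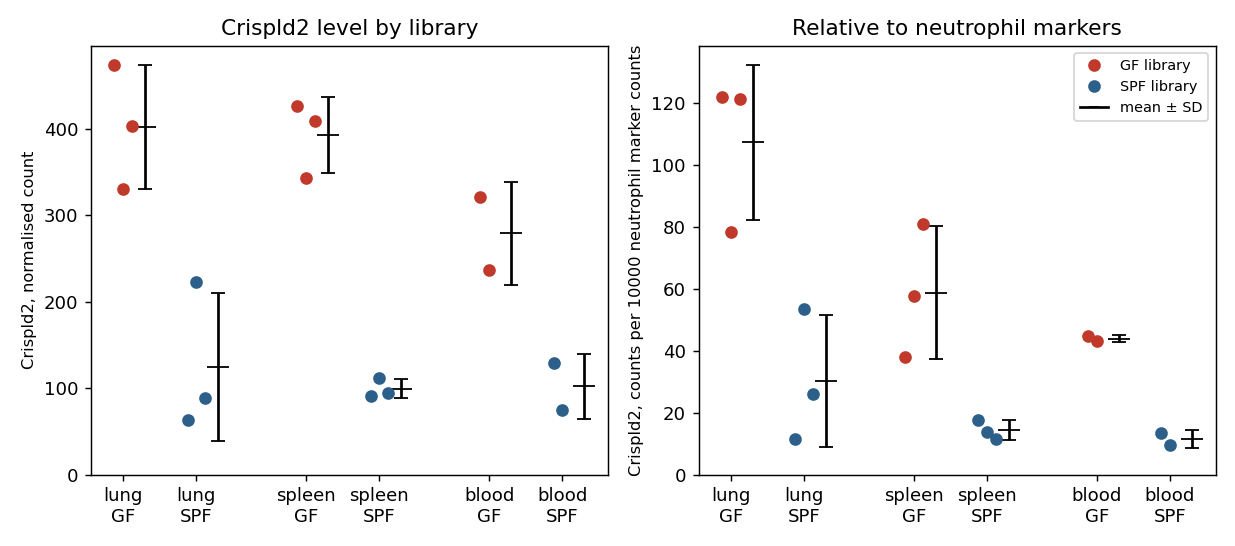
Crispld2 in each library (points) with the group mean ± SD (bars, n = 3 in lung and spleen, n = 2 in blood), in normalised counts on the left and per 10000 summed counts of 15 neutrophil markers on the right. On the left the 8 GF libraries lie between 237 and 474 and the 8 SPF libraries between 63.1 and 223; on the right both lung groups stand higher relative to the other tissues.

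The shallowest libraries gave few reads of the gene. SPF spleen replicate 1 held 12 reads, which gives an exact 95% Poisson interval of 47.3 to 160 normalised counts. SPF spleen replicate 4 held 20 reads (57.4 to 145), and GF blood replicate 3 held 32 reads (162 to 335). These intervals cover counting error only. The lowest GF spleen value, 343 in replicate 3, had an interval of 288 to 405. The interval of GF blood replicate 3 spanned the highest SPF value, 223 in lung replicate 2 (192 to 256). All these values belong to the split that chose the gene, so the intervals are description only. Without the 5 libraries under 250000 reads the spleen difference was 1.61 on the log2 scale, with 1 library left in each spleen group.

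The share of Crispld2 within the neutrophil signal was set against the 15 markers in the same library. Per 10000 summed marker counts it was 107 ± 25.0 in GF lung and 30.3 ± 21.3 in SPF lung (SD, n = 3 each). It was 58.8 ± 21.5 in GF spleen and 14.4 ± 3.10 in SPF spleen (SD, n = 3 each), and 43.9 ± 1.13 in GF blood and 11.4 ± 2.88 in SPF blood (SD, n = 2 each). GF stood above SPF without overlap in each tissue on this scale too, while SPF lung now overlapped both GF blood and GF spleen. Rescaled in this way, the blood difference was 1.95 in log2, beside a median of 0.48 over all genes, and 1.48 relative to that median.

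Markers of other cell types were read beside these values, since lung mesenchyme is a known source of Crispld2. Of 17 mesenchyme markers, 7 were measured, and their summed level was 1017 to 1225 in GF lung and 688 to 1151 in SPF lung. It was 84.1 to 178 in GF spleen and 68.6 to 141 in SPF spleen, and 107 to 167 in GF blood and 170 to 256 in SPF blood. In spleen and blood nearly all of that sum was the smooth muscle actin Acta2, with means of 114 in GF spleen, 107 in SPF spleen, 136 in GF blood and 211 in SPF blood. The collagen chain Col1a2 was at 0 in every spleen and blood library but 1 GF spleen library (5.07), and averaged 62.6 ± 13.6 in GF lung and 58.3 ± 21.7 in SPF lung (SD, n = 3 each). The matrix proteoglycan decorin (Dcn) was at 0 in every spleen and blood library but 1 GF blood library (0.468). The part of mesenchymal cells in the Crispld2 difference was not tested. SPF lung replicate 2, the SPF library with most Crispld2, had a mesenchyme sum of 1151, the highest of the SPF lung libraries. In GF lung the order was the reverse. Replicate 2, with most Crispld2, had the lowest sum (1017), and replicate 3, with least Crispld2, had the highest (1225). Lung epithelial markers summed to 3948 to 11043 in GF lung and 2647 to 5375 in SPF lung, and endothelial markers to 577 to 980 in GF lung and 361 to 619 in SPF lung. Platelet and erythroid markers summed to 81835 to 99526 in GF blood and 44309 to 70443 in SPF blood. In spleen they summed to 48.1 and 86.4 in GF replicates 4 and 3 and to 70.5 to 107 in SPF libraries, while GF spleen replicate 1, the GF spleen library with most Crispld2, stood apart at 21992. Without that library the spleen difference in Crispld2 was 1.89 on the log2 scale. Macrophage and monocyte markers summed to 1304 to 1900 in GF blood and 1495 to 1582 in SPF blood, and B cell markers to 465 to 570 in GF blood and 625 to 679 in SPF blood. In spleen, macrophage and monocyte markers summed to 1839 to 1916 in GF and 1566 to 1873 in SPF libraries. B cell markers there summed to 436 to 457 in GF and 541 to 745 in SPF libraries, without overlap. No mesenchyme, epithelial, endothelial, platelet, erythroid or B cell marker passed the test between GF and SPF in any tissue. Of 8 tested macrophage and monocyte markers, 2 passed in blood, where 1.33% of all genes did, and 0 in lung or spleen. Csf1r, the receptor for macrophage colony-stimulating factor, averaged 946 ± 290 in GF blood and 489 ± 116 in SPF blood (SD, n = 2 each), a log2 difference of 0.94 (limma adjusted p = 0.042), a call lost in 14 of 28 alternatives. The monocyte antigen Ly6c2 averaged 112 ± 33.1 in GF blood and 321 ± 41.2 in SPF blood, a difference of -1.50 (limma adjusted p = 0.0258), lost in 5 of 28. The part of these cells in the Crispld2 difference was not tested.

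Fkbp5 and Sla were the other 2 genes with all GF libraries above all SPF libraries, and they were picked out after their values were seen. Fkbp5, a co-chaperone of the glucocorticoid receptor that glucocorticoids induce, had 22.2 to 66.1 normalised counts in GF libraries (median 36.8) and 0 to 18.8 in SPF libraries (median 9.95). The lowest GF value, 22.2, is what 3 reads are worth in GF blood replicate 3. Spleen libraries held at most 15 reads of Fkbp5 in GF and 8 in SPF, so its split rests on few reads. The log2 differences of Fkbp5 between GF and SPF were 1.96 in lung, 2.18 in spleen and 2.08 in blood. Sla, an adaptor that damps antigen and cytokine receptor signals, had 672 to 1639 in GF libraries (median 984) and 194 to 602 in SPF libraries (median 393). Its differences were 1.63 in lung, 1.29 in spleen and 1.39 in blood. Within 1 tissue such a split is more common. GF lay above SPF without overlap for 8.05% of tested genes in lung, 6.04% in spleen and 26.3% in blood. It did so in each of the 3 tissues for 24 genes (0.289%). Such splits, also that over all libraries, were counted on the deposited signal with its offset of 0.5 reads. Blood had 2 libraries per status. GF blood replicate 3 had 37.7% of listed genes at 0 reads. There 1 read is worth 7.41, against 0.452 and 0.392 in the SPF blood libraries. The part of depth in the blood share was not tested.

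Between tissues, Crispld2 did not pass the test in either status. These comparisons were fitted with limma over all 8299 genes, and p-values were adjusted by Benjamini-Hochberg. Among GF libraries the means ran from lung (402) through spleen (393) to blood (279), and lung and spleen overlapped. GF lung exceeded GF blood by 0.52 in log2 (95% interval -0.21 to 1.24, adjusted p = 0.43), in a comparison where 9.8% of genes passed. GF lung and GF spleen differed by 0.02 (-0.63 to 0.67, adjusted p = 0.981, 10.2% of genes passing). GF spleen and GF blood differed by 0.50 (-0.23 to 1.22, adjusted p = 0.605, 0.88% passing). The GF lung and GF spleen libraries were all above both GF blood libraries, in lung by a narrow margin (330.1 against 321). GF blood replicate 3 held 32 reads of Crispld2. The share of all genes without overlap between tissues was not counted. These differences from blood did not pass against the fitted spread.

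Among SPF libraries the means were 125 in lung, 99.1 in spleen and 102 in blood, and all 3 groups overlapped. SPF lung and SPF blood differed by 0.14 in log2 (95% interval -0.59 to 0.86, adjusted p = 0.831), where 19.1% of genes passed the limma test. SPF lung and SPF spleen differed by 0.10 (-0.55 to 0.75, adjusted p = 0.91, 9.66% passing), and SPF spleen and SPF blood by 0.03 (-0.69 to 0.76, adjusted p = 0.965, 7.06% passing). The intervals allow changes of either sign, so they do not show equal levels. Without SPF lung replicate 2 the lung difference was -0.38 from blood and -0.42 from spleen.

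Scaling to the neutrophil markers moved the differences of lung from blood and spleen by more than 1.5 times. GF lung then exceeded GF blood by 1.25 in log2 with limma (adjusted p = 0.059; range over 29 alternatives 0.059 to 0.865), beside a median of 0.87 over all genes. SPF lung exceeded SPF blood by 1.16 (adjusted p = 0.0502; range 0.0502 to 0.972), beside a median of 1.15. Lung exceeded spleen by 0.90 in GF and by 0.80 in SPF libraries, beside medians of 0.94 and 0.73. Relative to those medians Crispld2 differed by 0.38, 0.01, -0.05 and 0.07. Spleen minus blood moved less: over 29 alternatives it ran from 0.10 to 0.86 in GF and from -0.35 to 0.52 in SPF.

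**Figure D2:**
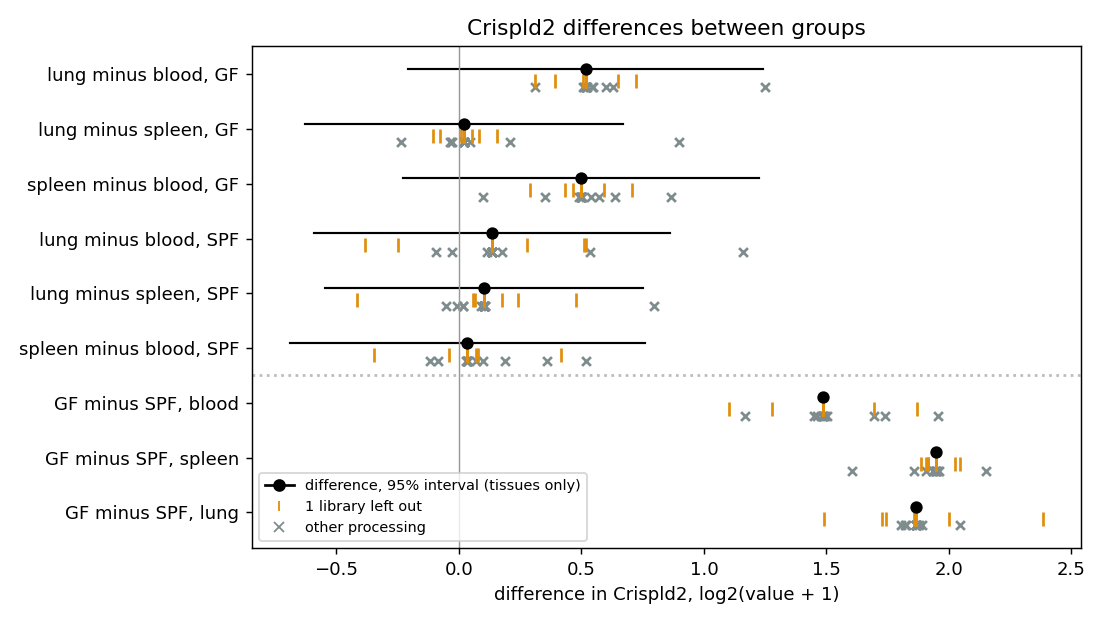
Differences in Crispld2 on the log2(value + 1) scale for 6 tissue comparisons and 3 comparisons of GF with SPF; black points are the differences, black lines their 95% intervals (tissue comparisons only), orange ticks the values with 1 library left out and grey crosses the values under other processing. The GF minus SPF differences lie between 1.10 and 2.38 as each library is left out, and each tissue interval spans 0.

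The other lipopolysaccharide sensors did not follow Crispld2 as a group. Of 16 other genes listed for binding or recognising lipopolysaccharide, 13 were measured and tested, and GF differed from SPF by limma for 1 of them in blood and for 0 in lung and 0 in spleen. The background was 0.0241% of genes passing in lung, 0.325% in spleen and 1.33% in blood, and at an unadjusted p under 0.05 the numbers of genes were 332, 1032 and 1367. The median log2 difference of the list was 0.24 in lung, 0.23 in spleen and -0.02 in blood, beside 0.03, 0.01 and 0.02 over all tested genes. The gene that passed was Itgam, the CD11b chain of complement receptor 3, which was also used in the sort: it averaged 1149 ± 71.6 in GF blood and 487 ± 115 in SPF blood (SD, n = 2 each), a log2 difference of 1.26 (limma adjusted p = 0.0121). That call was lost without GF blood replicate 3, without SPF blood replicate 3, after scaling to the neutrophil markers, and with a prior that had no trend or robust estimation.

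Cd14, the co-receptor that passes lipopolysaccharide to TLR4, had 421, 373 and 414 normalised counts in GF spleen, against 38.1, 104 and 198 in SPF spleen. The groups did not overlap, and SPF replicate 1, the shallowest library, was lowest. The log2 difference was 2.06 (limma adjusted p = 0.121; range over 28 alternatives 0.0034 to 0.225), and Cd14 passed under 4 of those alternatives. Its differences were -0.32 in lung, with 3916 ± 94.2 in GF and 4914 ± 770.1 in SPF libraries (SD, n = 3 each), and -0.18 in blood, with 430.1 ± 294 in GF and 440.2 ± 139 in SPF libraries (SD, n = 2 each). Tlr4, the signalling receptor, averaged 129 ± 14.3 in GF lung and 86.1 ± 11.6 in SPF lung (SD, n = 3 each). It averaged 128 ± 44.0 in GF spleen and 101 ± 19.4 in SPF spleen (SD, n = 3 each), and 123 ± 27.2 in GF blood and 55.6 ± 3.94 in SPF blood (SD, n = 2 each). Its log2 differences of 0.57, 0.28 and 1.14 did not pass (limma adjusted p = 0.999, 0.738 and 0.0842), although the blood difference passed under 5 of 28 alternatives (adjusted p from 0.000798 to 0.472). Ly96, the MD-2 subunit that holds lipopolysaccharide against TLR4, had differences of -0.14 in lung, -0.02 in spleen and -1.16 in blood. Lbp, the serum carrier of lipopolysaccharide, had 0.25, -0.05 and -0.60, and Aoah, the lipase that detoxifies it, had 0.63, 1.48 and -0.02. None of the 3 passed in any tissue, and Aoah and Lbp averaged at most 20.8 normalised counts in a group.

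Of 24 genes of the TLR4 signalling chain, 21 were tested, and 0 passed between GF and SPF in lung, spleen or blood. They include the adaptors Myd88 and Tirap, the kinases Irak1 and Irak4, the ubiquitin ligase Traf6 and the inhibitors Nfkbia and Tnfaip3. The median log2 difference was -0.05 in lung, -0.05 in spleen and 0.24 in blood. The members spread from -0.87 to 0.85 in lung, from -1.65 to 1.22 in spleen and from -0.48 to 1.54 in blood.

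Relatives of Crispld2 by protein fold were mostly not measured. Of 15 CAP superfamily genes, 4 were in the table: Crispld2, Pi16, Glipr1 and Glipr2. Glipr2, a CAP protein of the Golgi, averaged 1077 ± 93.4 in GF spleen and 510 ± 86.2 in SPF spleen (SD, n = 3 each). This difference of 1.09 in log2 passed (limma adjusted p = 0.0114), but it was lost without GF spleen replicate 4, without the libraries under 250000 reads, after scaling to the neutrophil markers, with voom weights and with a prior that had no trend or robust estimation. Its differences in lung (0.28) and blood (0.50) did not pass. Pi16, a membrane-anchored peptidase inhibitor, had -0.38 in lung, 0.46 in spleen and -0.49 in blood. Glipr1, which is related to plant pathogenesis proteins, had -0.33, 0.17 and -0.86. Neither passed in any tissue. Of 6 genes with an LCCL domain, Crispld2 alone was tested; Dcbld2 was listed but lay under the filter.

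**Figure D3:**
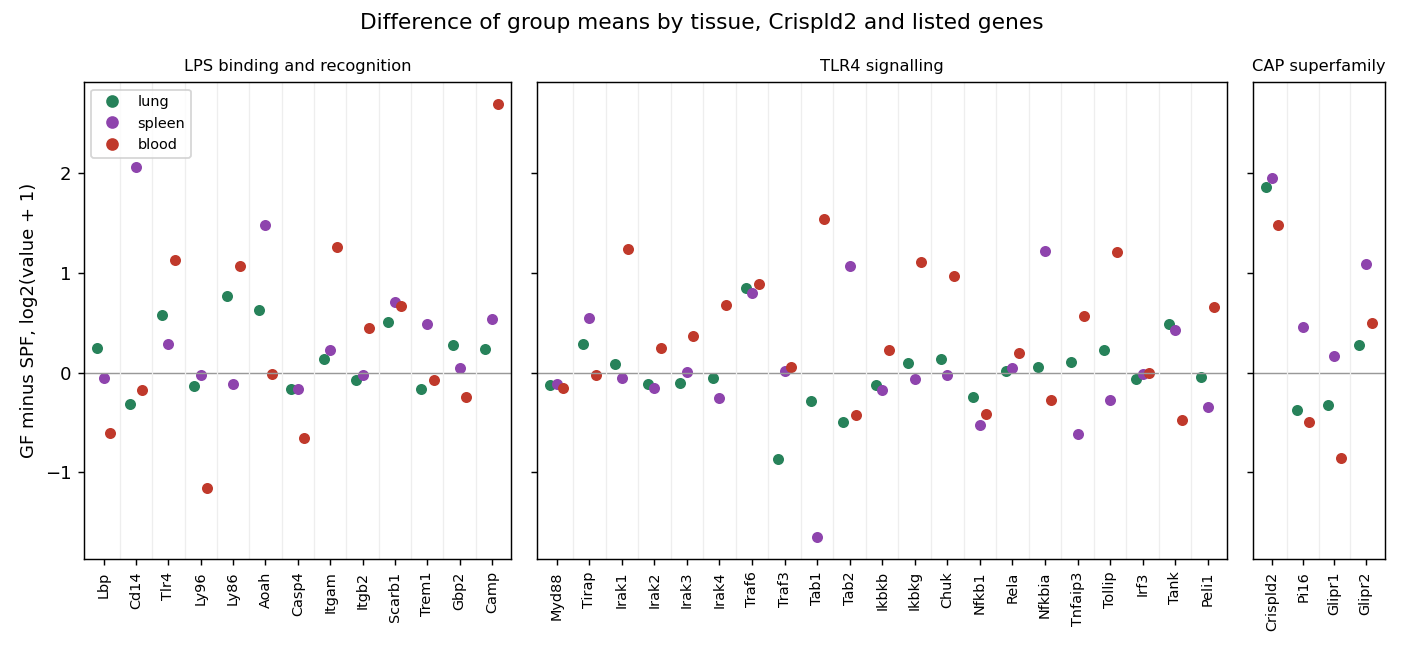
GF minus SPF difference of group means on the log2(value + 1) scale in lung (green), spleen (purple) and blood (red) for the tested genes of 3 lists and for Crispld2. The 3 points of Crispld2 lie between 1.49 and 1.95, while those of Cd14 run from -0.32 to 2.06.

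Across tissues some sensors moved where Crispld2 did not pass, while Tlr4, Ly96 and Aoah passed in no tissue comparison. Tlr4 differed by 0.06 between GF lung and GF blood and by 0.62 between SPF lung and SPF blood (limma adjusted p = 0.942 and 0.173). Cd14, the TLR4-amplifying receptor Trem1 and the scavenger receptor Scarb1, which also takes up lipopolysaccharide, were higher in lung in all 4 comparisons of lung with blood or spleen. Cd14 averaged 3916 ± 94.2 in GF lung and 430.1 ± 294 in GF blood (SD, n = 3 and 2), a log2 difference of 3.36 (limma adjusted p = 0.00179). Trem1 averaged 4577 ± 170.1 in GF lung and 656 ± 131 in GF blood, a difference of 2.81 (limma adjusted p = 7.6e-11). Between SPF lung and SPF spleen the Cd14 difference was 5.65 (limma adjusted p = 9.22e-06) and the Trem1 difference 3.49 (adjusted p = 1.93e-14). These 4 calls held under all 29 alternatives run. Markers of lung cells moved with them: 7 of 7 epithelial and 5 of 5 endothelial markers were higher in lung in each of the 4 comparisons, with median log2 differences of 4.59 to 6.22. Neutrophil markers were lower in lung for 9 of 15 against GF spleen, 8 against SPF spleen, 2 against GF blood and 6 against SPF blood, with 2 higher in the last. The part of lung cells in these differences was not tested. In full, 4 of the 13 list genes were higher and 1 lower in GF lung than in GF blood, where 7.83% of all genes were higher and 1.96% lower. In GF lung against GF spleen, 3 were higher and 1 lower (8.03% and 2.14% of all genes). In SPF lung against SPF blood, 4 were higher and 0 lower (12.5% and 6.63%), and against SPF spleen 3 were higher and 1 lower (7.68% and 1.99%). Between spleen and blood, 0 of 13 passed in GF, and 2 were higher and 1 lower in SPF (3.05% and 4.01%). The lower gene was Cd14 (-2.15, limma adjusted p = 0.0404), a call lost in 16 of 29 alternatives. Lbp, among the 4 that rose in GF lung relative to blood (1.67, adjusted p = 0.05), lost its call in 18 of 28. Of the CAP genes, Glipr1 averaged 376 ± 27.8 in SPF lung and 903 ± 125 in SPF blood (SD, n = 3 and 2), a log2 difference of -1.25 (limma adjusted p = 0.000323), a call lost after scaling to the neutrophil markers. It was also lower in SPF spleen than in SPF blood, by -1.25 (adjusted p = 0.00174), a call lost in 4 of 29 alternatives. Glipr2 was higher in SPF lung than in SPF spleen by 0.93 (adjusted p = 0.00297), and this call was lost in 1 of 29 alternatives. Pi16 was higher in the same comparison by 0.79 (limma adjusted p = 0.0258), a call lost in 8 of 29 alternatives.

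Since CRISPLD2 is glucocorticoid-inducible in lung, a list of 24 glucocorticoid response genes was read as well, of which 18 were tested. GF differed from SPF for 1 of them in spleen and for 0 in lung and 0 in blood. That gene was Il1r2, the decoy receptor for interleukin-1, with 1805 ± 402 in GF spleen and 576 ± 186 in SPF spleen (SD, n = 3 each). The log2 difference was 1.67 (limma adjusted p = 0.00131), and the call was lost with a prior that had no trend or robust estimation. The median difference of the list was 0.14 in lung, 0.65 in spleen and 0.05 in blood, beside 0.03, 0.01 and 0.02 over all tested genes. Of the 18 genes, 13, 16 and 10 were positive, and the share of all genes that were positive was not counted. The 21 measured genes summed to 6967 in SPF spleen replicate 1, the shallowest library. The sums were 14034 and 16765 in the other SPF spleen libraries and 14601 to 21697 in GF spleen. Fkbp5 is on this list and did not pass in any tissue. Over all genes 0.325% passed in spleen, 0.0241% in lung and 1.33% in blood.

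The genes around Crispld2 were read in the same comparisons. Of the annotated genes within 500 kb, 11 were tested, and 1 passed in blood, 0 in lung and 0 in spleen, where 1.33%, 0.0241% and 0.325% of all genes passed. The 2 nearest protein-coding genes, Zdhhc7, a palmitoyltransferase 28097 bases downstream, and Usp10, a deubiquitinase 34878 bases upstream, did not pass. Usp10 held at most 1 read in any spleen or blood library, so its result there says little. It averaged 8.53 ± 4.49 in GF lung and 10.7 ± 1.87 in SPF lung (SD, n = 3 each). Zdhhc7 averaged 41.5 ± 14.7 in GF lung and 26.6 ± 8.52 in SPF lung, 23.8 ± 3.44 in GF spleen and 64.0 ± 49.4 in SPF spleen (SD, n = 3 each). In blood it averaged 93.2 ± 35.9 in GF and 22 ± 9.38 in SPF libraries (SD, n = 2 each), a log2 difference of 2.05 (limma adjusted p = 0.129; range over 28 alternatives 0.00257 to 0.737). The gene that passed was Mbtps1, the site-1 protease of the Golgi, 433703 bases upstream, with 41.4 ± 14.8 in GF blood and 5.97 ± 1.78 in SPF blood (SD, n = 2 each), a log2 difference of 2.59 (limma adjusted p = 0.00753). That call was lost without GF blood replicate 3, without SPF blood replicate 3 or 4, after scaling to the neutrophil markers and with a prior that had no trend or robust estimation.

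The genes most like Crispld2 across libraries were found by Pearson correlation of log2(value + 1) over the 16 libraries, among 2713 genes with at least 10 reads in at least 12 libraries. These values are descriptions: all 16 points share the split between GF and SPF that chose Crispld2, and they differ in depth. The median r over the 2713 genes was 0.01, 11 genes exceeded 0.8 and 1 lay under -0.8. The highest were Il1rap (r = 0.91), Ezr (0.89), Serinc3 (0.86), Plekhb2 (0.86) and Gpr141 (0.86).

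Il1rap, the co-receptor subunit for interleukin-1, interleukin-33 and interleukin-36, had 675, 424 and 565 normalised counts in GF lung, against 189, 549 and 204 in SPF lung. It had 365, 612 and 805 in GF spleen, against 168, 217 and 198 in SPF spleen, and 553 and 385 in GF blood, against 147 and 131 in SPF blood. As for Crispld2, the single high SPF library was lung replicate 2, and the lung groups of Il1rap overlapped through it. Ezr, the ezrin linker between membrane and actin, had 1000.1 to 1506 in GF libraries and 656 to 1277 in SPF libraries. Gpr141, an orphan receptor, had 150 to 301 in GF libraries and 69.0 to 151 in SPF libraries.

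The genes that ran most against Crispld2 were Rbm3 (r = -0.80), Cdkn2d (-0.79), Rbfa (-0.78), Psma4 (-0.75) and Ufd1l (-0.75). Rbm3, the cold-induced RNA-binding protein, had 29.6 to 82.1 normalised counts in GF libraries and 83.8 to 183 in SPF libraries. The ranges did not overlap, but the margin was narrow. The lowest SPF value was that of spleen replicate 1, the shallowest library, where 1 read is worth 7.62. The share of all genes with GF below SPF was not counted, and Rbm3 was picked by its correlation with Crispld2. The log2 differences of Rbm3 between GF and SPF were -0.86 in lung, -1.68 in spleen and -0.79 in blood. Cdkn2d, a cell cycle inhibitor of the INK4 family, had 192 to 393 in GF libraries and 290.2 to 456 in SPF libraries.

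Once each group mean was taken away, the libraries' deviations were closest to those of Crispld2 for Fam107b (r = 0.94), Adam8 (0.87), Prkx (0.87), Cd44 (0.84) and Tmem229b (0.84). SPF lung replicate 2 was the highest SPF lung library for all 5. Adam8, a membrane metalloprotease stored in neutrophil granules, had 1765 in that library, against 974 and 1055 in the other SPF lung libraries. Cd44, the hyaluronan receptor, had 2589, against 1477 and 2153.

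**Figure D4:**
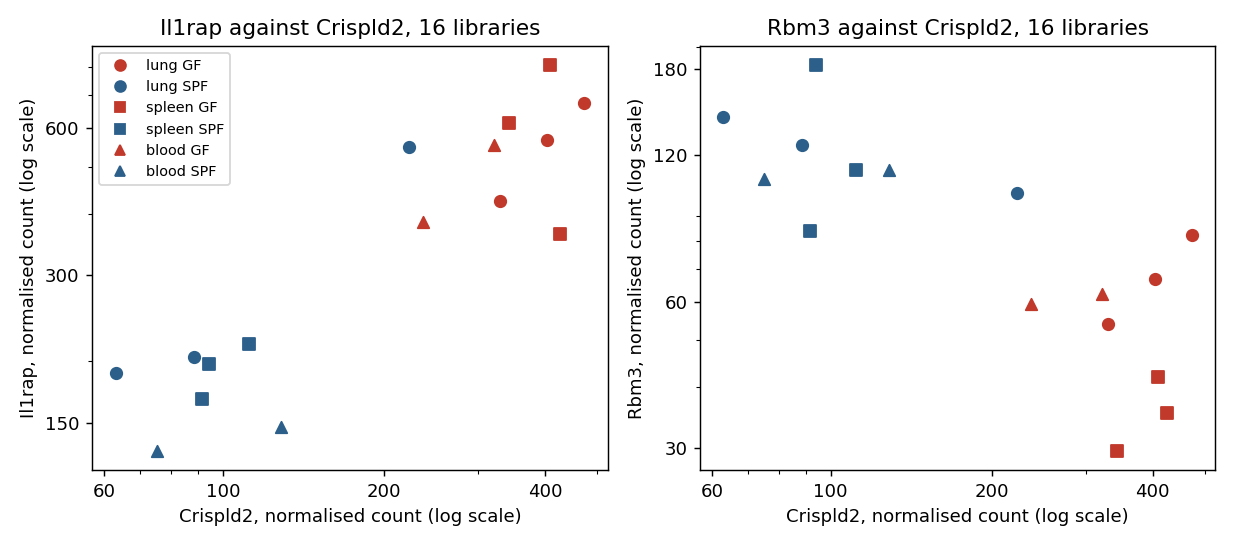
Normalised counts of Il1rap (left) and Rbm3 (right) against Crispld2 in the 16 libraries, on logarithmic axes, with GF in red, SPF in blue and a symbol for each tissue. Il1rap runs with Crispld2 (r = 0.91) and Rbm3 against it (r = -0.80), and the blue circle at 223 Crispld2 counts is SPF lung replicate 2.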

How the data were processed

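Neutrophil RNA was amplified for low input and sequenced in paired-end mode, per the labels' protocols. The submitters' processing notes name CASAVA, RSEM 1.3.1, limma and the assembly mm10. The strand setting, the annotation version and the scaling are not given in the sources used here. The authors deposited 1 table of linear signal values for 10296 genes and 16 libraries. Of its values under 10 reads, 91.4% to 98.7% in a library lie within 0.05 of a whole read plus 0.5, so reads were recovered by dividing each value by what 1 read is worth in its column and taking off 0.5. Normalised counts are values less that offset. The means of 6 groups were fitted in 1 model with limma 3.58.1 (R 4.3.3) on log2(value + 1), with a trended and robust prior, two-sided, after a filter of 10 in at least 2 libraries (8299 genes), with Benjamini-Hochberg adjustment at 0.05. Such differences can understate changes of low genes. The offset of 0.5 reads is worth more in shallow libraries, so it can also create differences of genes near 0 reads. For example, 1 read is worth 7.41 in GF blood replicate 3 and 0.392 in SPF blood replicate 4. The fit was tested on simulated data. Log2 differences of Crispld2 between GF and SPF carry no test.

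Crispld2 and the gene lists were chosen with earlier results of these data known. Named genes are the main lipopolysaccharide sensors, the CAP and LCCL members and the neighbours within 500 kb. They also include up to 3 members per list and comparison of smallest adjusted p among those passing with a mean of at least 10. The 5 highest and 5 lowest correlations are named as well. Predicted models and pseudogenes were left out of the correlations only, so the tested neighbours include predicted models. Symbols come from the table, coordinates from GENCODE M21 and the promoter from RefSeq. Alternatives changed the pseudocount, filter, scaling, prior, weights, replicate term and libraries.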

Additional observations from a re-analysis of the deposited data

Results flagged for a closer look

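Groups held 2 or 3 libraries, so single libraries were not screened. The GF minus SPF difference of 2 named genes differed between spleen and blood by limma's interaction test, with adjustment over all tested genes. For Mbtps1 the spleen minus blood difference of the status effect was -3.03 (SE 0.66, limma adjusted p = 0.0264): its log2 difference between GF and SPF was -0.43 in spleen, 2.59 in blood and 0.52 in lung. Its means were 17.7 ± 2.29 in GF spleen and 25.4 ± 5.97 in SPF spleen (SD, n = 3 each), and 41.4 ± 14.8 in GF blood and 5.97 ± 1.78 in SPF blood (SD, n = 2 each). For Ly6c2, a monocyte marker whose reads near-identical Ly6 copies may share, the spleen minus blood difference was 2.0 (SE 0.45, limma adjusted p = 0.0272), with log2 differences of 0.50 in spleen, -1.50 in blood and 0.08 in lung. It averaged 279 ± 105 in GF spleen and 198 ± 73.8 in SPF spleen (SD, n = 3 each), and 112 ± 33.1 in GF blood and 321 ± 41.2 in SPF blood (SD, n = 2 each). Over all genes tested, 63 passed this interaction between spleen and blood, 1 between lung and spleen and 1 between lung and blood.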

How the results depend on the processing

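Crispld2 kept its direction between GF and SPF in lung, spleen and blood under each alternative run. Since the gene was chosen by its levels in GF and SPF, and these did not overlap, leaving libraries out could not reverse the direction. Crispld2 passed in no tissue comparison. Its log2 difference between GF and SPF moved beyond 1 SD for blood after scaling to the neutrophil markers (1.95), and for spleen without the libraries under 250000 reads (1.61) and with the replicate block (2.15). With each library left out in turn, the GF minus SPF difference was 1.49 to 2.38 in lung, 1.89 to 2.04 in spleen and 1.10 to 1.87 in blood. The tissue differences were 0.31 to 0.72 (lung minus blood), -0.11 to 0.15 (lung minus spleen) and 0.29 to 0.70 (spleen minus blood) in GF, and -0.38 to 0.52, -0.42 to 0.48 and -0.35 to 0.42 in SPF.

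Counts of all genes called depended more on the setting. In the order lung minus blood, lung minus spleen and spleen minus blood, they were 813, 844 and 73 in GF and 1585, 802 and 586 in SPF; GF minus SPF gave 2 in lung, 27 in spleen and 110 in blood. A filter of 100 gave 384, 365 and 44 in GF, 921 and 419 for the lung comparisons in SPF, and 250 for GF minus SPF in blood. Scaling to the neutrophil markers gave 1378, 2479 and 39 in GF, 2863, 1351 and 56 in SPF, and 0, 3 and 8 for GF minus SPF in lung, spleen and blood. A prior without trend or robust estimation gave 129 for SPF spleen minus blood and 0, 14 and 0 for GF minus SPF. Limma-voom gave 1648 (lung minus blood, GF), 3423 (lung minus blood, SPF), 1712 (spleen minus blood, SPF) and 6, 3 and 1016 for GF minus SPF. Quantile normalisation gave 329 for SPF spleen minus blood. Without the libraries under 250000 reads the counts were 111 (spleen minus blood, GF), 2588 and 368 (lung and spleen minus blood, SPF), and 1, 59 and 179 for GF minus SPF. Each library left out in turn gave 524 to 1023, 556 to 1011 and 28 to 163 in GF, 706 to 1859, 541 to 988 and 39 to 733 in SPF, and 0 to 5, 10 to 219 and 2 to 351 for GF minus SPF in lung, spleen and blood. The share of called genes that were higher also moved. In GF it was 80.0% for lung minus blood (62.2% with a filter of 100 to 97.9% after marker scaling), 78.9% for lung minus spleen (58.7% after quantile normalisation to 98.9% after marker scaling) and 53.4% for spleen minus blood (38.5% after marker scaling to 82.8% without GF blood replicate 2; 77.4% with voom). In SPF it was 65.3% for lung minus blood (45.2% with a filter of 100 to 99.0% after marker scaling), 79.4% for lung minus spleen (60.6% after quantile normalisation to 98.4% after marker scaling) and 43.2% for spleen minus blood (29.2% with a filter of 100 to 89.3% with voom). For GF minus SPF it was 77.8% in spleen (28.6% with the prior without trend or robust estimation to 100% with voom; 44.1% without the libraries under 250000 reads and 42.9% without SPF spleen replicate 1), 60% in blood (0% without SPF blood replicate 3 to 75% after marker scaling; 21.1% without GF blood replicate 2) and 50.0% in lung (0% without the libraries under 250000 reads to 80% without SPF lung replicate 2, of few genes). GF minus SPF fell to 2 genes without SPF blood replicate 3, to 10 without GF spleen replicate 4 and to 0 without GF lung replicate 2. The cause of these changes was not tested. Where a group was left with 1 library, that library was assumed to vary like the others.

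Replicate numbers recur across groups, but same-numbered libraries did not deviate together: r was -0.24 to 0.05 over 5 pairs across status and -0.15 to 0.09 over 9 pairs across tissues. The replicate block gave 51 genes for GF minus SPF in spleen. A replicate block within status gave 46 (spleen minus blood, GF), 988 and 74 (lung and spleen minus blood, SPF), and GF minus SPF could not be fitted with it. Named genes other than Crispld2 gave 3178 values on the same side of the threshold, 88 that lost and 54 that gained a call. A count test was not run, since fewer than 95% of values under 10 reads lay within 0.05 of a whole read in some libraries. At these depths, 12 to 32 reads of Crispld2 stand behind some values.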
